A study of Mus musculus with 4 samples.

Results

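Keratin and keratin-associated protein genes were examined for acetylation of histone H3 at lysine 9 (H3K9ac) and lysine 14 (H3K14ac) around their transcription start sites (TSSs) in mouse embryonic stem (ES) cells. Members were all genes on chromosomes 1 to 19 that GENCODE vM1 (mouse build mm9) types as protein-coding and that carry a symbol beginning with Krt and a digit, or with Krtap. This gave 97 genes of 21418. They comprise 28 type I keratins, 23 type II keratins and 46 keratin-associated proteins (KAPs). The 51 keratins were divided by symbol. Krt7, Krt8, Krt18 and Krt19 are the 4 simple-epithelial genes. Number ranges gave 9 genes of the inner root sheath and companion layer of the hair follicle and 14 hair keratins. The 24 keratins left over were counted as other epithelial genes. Krt72-ps is counted because the annotation types it as protein-coding, although its symbol marks a pseudogene.

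Keratins form the intermediate filaments of epithelial cells, and each filament is built from pairs of 1 type I and 1 type II chain. Krt8 and Krt18 are the pair of simple, single-layered epithelia and are the first keratins made in the mouse embryo, whereas Krt5 and Krt14 belong to the basal layer of stratified epithelia, Krt1 and Krt10 to the layers above it, and hair keratins together with KAPs, the cysteine-rich or glycine- and tyrosine-rich matrix proteins that cross-link them, to the hair shaft. Acetylation of H3 tails near a TSS is a mark commonly found at active promoters.

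The data were chromatin immunoprecipitation sequencing (ChIP-seq) libraries from the E14 line of mouse ES cells, labelled with strain 129P2/OlaHsd, passage 25-30 and no treatment. One library was made with an H3K9ac antibody (rabbit polyclonal, Abcam AB4441), 1 with the H3K14ac mouse monoclonal 13HH3, 1 with another H3K14ac mouse monoclonal, 7G8, and 1 from input DNA without an antibody. The study's methods describe ES cells derived from blastocysts and do not name the E14 line. Per those methods, the cells were first grown on feeder cells and then passaged without them. Each group is 1 library, so no comparison has a replicate check and no p-value is given. Intervals are exact 95% binomial intervals of 2 tag counts and cover counting error only. The bulk libraries cannot tell apart fewer cells carrying a mark and less of the mark per cell.

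The libraries held 19313927 to 23839094 tags, and 3.3% of the 13HH3 tags repeated a position and strand and were counted once. Around member TSSs the counts were modest, with 7 to 176 H3K9ac tags (median 35) and 7 to 85 input tags (median 44) within 2 kb on each side. As a check of the cell label, 7 of 8 ES cell marker genes (median H3K9ac over input 2.70 on the log2 scale, range 0.01 to 3.98) were at least 2-fold above input, as were 0 of 7 markers of feeder fibroblasts (range -0.30 to 0.98). Short of that limit, the intervals of the feeder markers Col1a1 (0.98), Col1a2 (0.84) and Thy1 (0.80) lay above 0. Those of Col3a1, Postn and Acta2 included 0, and that of Pdgfrb began at 0.00. At least 2-fold above input were also 2 of 5 trophoblast markers (range -0.10 to 2.06) and 2 of 4 primitive endoderm markers (range 0.51 to 1.59). As 55.4% of all protein-coding genes passed the same limit, counts of 2 among so few trophoblast or primitive endoderm markers cannot be told apart from that share. Some simple-epithelial keratins are known from trophoblast and primitive endoderm, and the part of such cells in the values below was not tested.

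The DNA just upstream of the start sites differed between the classes. Shown first are the 100 bases before the TSS (mm9, 5′ to 3′ on the gene's strand) of the simple-epithelial genes, with CpG dinucleotides in capitals. Krt8 is at chr15:101834774-101834873 on the minus strand, Krt18 at chr15:101858547-101858646 on the plus strand, Krt7 at chr15:101242733-101242832 on the plus strand and Krt19 at chr11:100007435-100007534 on the minus strand. For Krt7 and Krt19 the TSS of the transcript with the longest coding sequence was used, which lies 1359 bp and 2545 bp downstream of the outermost annotated start.
Krt8: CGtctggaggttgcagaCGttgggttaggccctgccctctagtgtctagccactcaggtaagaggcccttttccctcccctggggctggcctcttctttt
Krt18: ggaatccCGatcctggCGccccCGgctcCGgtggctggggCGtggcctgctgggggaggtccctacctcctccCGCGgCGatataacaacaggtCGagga
Krt7: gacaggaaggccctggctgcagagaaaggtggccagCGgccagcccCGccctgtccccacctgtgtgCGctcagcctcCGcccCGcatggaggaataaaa
Krt19: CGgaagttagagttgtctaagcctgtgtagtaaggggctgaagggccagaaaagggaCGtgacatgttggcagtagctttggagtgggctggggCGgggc
Krt18, with 9 CpG dinucleotides in these 100 bases, is the richest of the 4, and none of the 4 holds TATAAA.

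Among the other members that the rule for named genes selected, those with the lowest and the highest CpG counts in the 1 kb around the gene start are shown for contrast. Krtap5-2 (2 CpG per 1 kb, chr7:149361911-149362010, minus strand) and Krtap5-5 (4 CpG, chr7:149415877-149415976, minus strand) are KAPs. Krt72-ps (39 CpG, chr15:101616890-101616989, minus strand) and Krt83 (52 CpG, chr15:101269236-101269335, minus strand) belong to the inner root sheath and to the hair shaft. Capitals mark CpG dinucleotides and the motif TATAAA.
Krtap5-2: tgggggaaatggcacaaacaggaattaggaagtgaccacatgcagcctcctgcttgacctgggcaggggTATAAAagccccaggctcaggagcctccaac
Krtap5-5: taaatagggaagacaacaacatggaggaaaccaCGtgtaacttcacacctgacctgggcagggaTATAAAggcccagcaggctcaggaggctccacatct
Krt72-ps: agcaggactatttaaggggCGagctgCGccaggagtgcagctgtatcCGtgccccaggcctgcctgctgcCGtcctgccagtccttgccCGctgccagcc
Krt83: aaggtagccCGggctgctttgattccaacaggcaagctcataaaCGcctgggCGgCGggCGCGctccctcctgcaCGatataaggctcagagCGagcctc
In both KAP sequences TATAAA begins close upstream of the TSS, at position -31 in Krtap5-2 and -36 in Krtap5-5, counted from the TSS.

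The motif was common among the members. TATAAA on the gene's strand was found in the 100 bases before the TSS of 58 of 97 members (59.8%), against 4.59% of all protein-coding genes. Among KAP genes of chromosome 11 it was present at 21 of 22 (95.5%), and at 13 of 19 on chromosome 16 (68.4%). Type I keratins other than the simple-epithelial ones held it at 17 of 26 starts (65.4%), and type II keratins at 4 of 21 (19%). GGGCGG on either strand, the core of the GC box, was found at 5 members (5.15%) and at 31.3% of all genes. The motif counts are at the outermost starts. They therefore leave out GGGCGG in the inner-start sequences of Krt7 and Krt19 shown above, which both hold it. The members' median was 16 CpG dinucleotides per 1 kb, against 42 for all genes, with 10 for KAPs, 21.5 for hair keratins, 22 for other epithelial keratins, 24.5 for simple-epithelial keratins and 29 for the inner root sheath class, all at the outermost starts. Krt7 and Krt19 have 5 and 14 there and 53 and 32 at the inner starts shown above, so at the starts shown the 4 simple-epithelial genes ranged from 32 to 53. A motif match is a description of the letters and shows no factor bound there.

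H3K9ac at the TSSs was low across the family. The median log2 ratio of H3K9ac to input tags, each per 10000000 tags of its library with 1 added, was -0.44 over the 97 members (range -2.20 to 1.46), against 1.23 over all protein-coding genes. At least 2-fold more H3K9ac than input (log2 ratio of 1 or more) was found at 1 member, Krt8, while 55.4% of all genes passed this limit. At least 2-fold less was found at 17 members, against 3.98% of all genes. By library totals the interval lay above 0 for 6 members and below 0 for 39. Intervals were not counted over all genes or with the other scaling given below, so these counts have no share beside them. The median member window held 15.1 H3K9ac tags per 10000000, against 52.2 over all genes, and 22.8 input tags against 18.6.

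The H3K14ac antibodies also gave medians below those of all genes. For 13HH3 the members' median was -0.15 (range -1.36 to 1.48), against 0.33 over all genes. One member, Krtap5-5, was at least 2-fold above input (14.7% of all genes) and 5 were at least 2-fold below (2.19%). For 7G8 the median was -0.28 (range -1.35 to 1.08), against 0.33. One member, Krtap4-13, was at least 2-fold above input (15.1% of all genes) and 4 were at least 2-fold below (1.37%). The 3 ratios share the input library and are therefore not independent of each other.

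Taken directly against H3K9ac, which needs no input, 13HH3 was at least 2-fold higher at 10 members (1.74% of all genes) and at least 2-fold lower at 1, Krt8 (45.2%). The members' median was 0.27, against -0.86 over all genes. For 7G8 against H3K9ac, 12 members were at least 2-fold higher (3.36% of all genes) and 4 lower (50.4%), with a median of 0.14 against -1.01. These levels depend on the scaling. When each library was scaled by its tags outside enriched regions, the median of all genes shifted by +0.47 for H3K9ac, +0.18 for 13HH3 and +0.07 for 7G8 over input, the members' medians over input moved to 0.02 for H3K9ac, 0.03 for 13HH3 and -0.21 for 7G8, 13HH3 over H3K9ac to -0.01 and 7G8 over H3K9ac to -0.25. With this scaling 6 members were at least 2-fold above input in H3K9ac and 5 below, against 13985 and 282 of all 21418 genes. In place of 23 and 74, 49 members lay above 0 and 48 below, against 18300 and 2771 of all genes. Against H3K9ac, 13HH3 was then at least 2-fold higher at 2 members and lower at 2, in place of 10 and 1 (149 and 11769 of all genes). For 7G8 these counts were 2 and 6, in place of 12 and 4 (217 and 13549 of all genes).

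**Figure D1:**
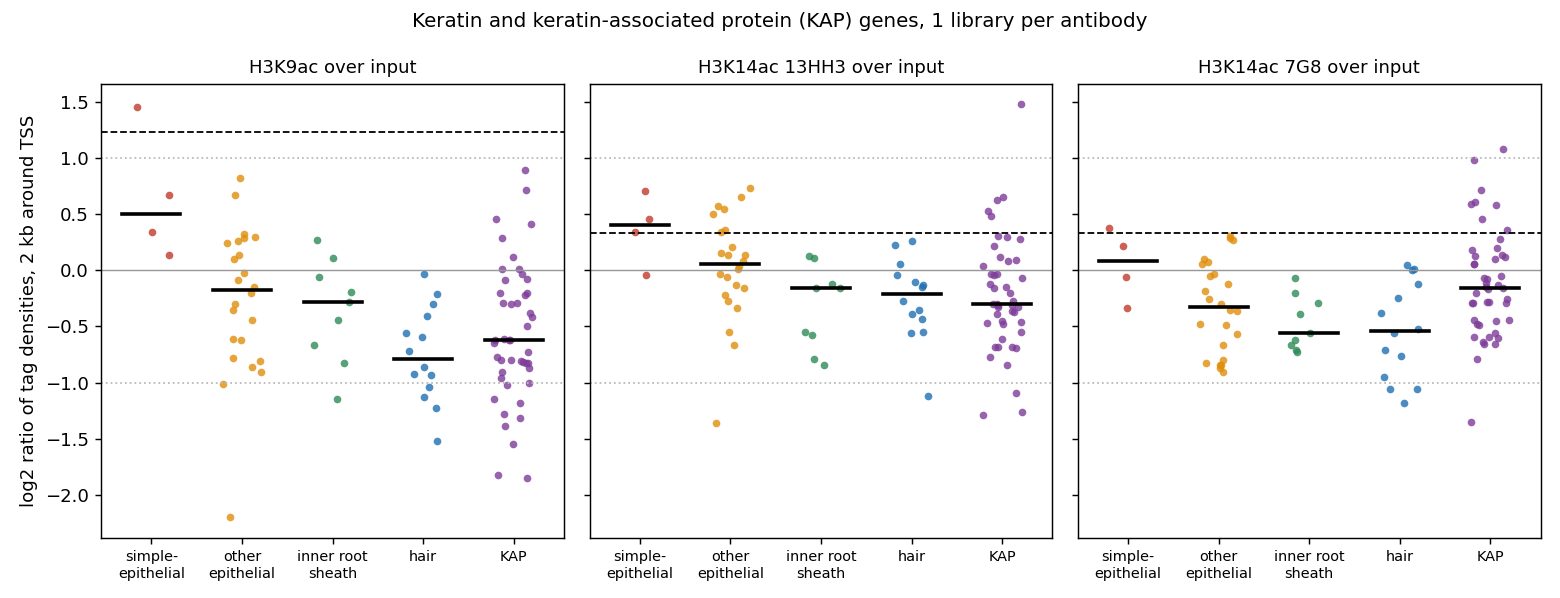
Log2 ratio of each ChIP library to input within 2 kb of the TSS (y axis) for the 97 members, 1 point per gene, by class (x axis), with 1 panel per library. Black bars are class medians, the dashed line is the median of all protein-coding genes (1.23, 0.33 and 0.33) and dotted lines mark 2-fold. Most members lie below the dashed line in every panel, and Krt8 is the only point above the upper dotted line for H3K9ac.

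Enriched regions, runs of 400 bp windows in which a library exceeded its local input rate at a Poisson threshold of 1e-05, were scarce near member TSSs. An H3K9ac region lay within 2 kb of 14 members (14.4%), against 66.1% of all genes. A 13HH3 region did so for 8 members (8.25%), against 29.1%, and a 7G8 region for 0 members, against 25.3%. At the stricter threshold of 1e-10 H3K9ac regions remained at 6 members, Krt8, Krt18, Krt222, Krt28, Krt72-ps and Krtap17-1, and 13HH3 regions at 2, Krtap5-5 and Krtap17-1. Of all 21418 genes, 12250 kept an H3K9ac region and 1869 a 13HH3 region at that threshold. The other members with an H3K9ac region were Krtap5-5, Krt27, Krt12, Krt20, Krt17, Krt42, Krt7 and Krt81. Those with a 13HH3 region but no H3K9ac region were Krt16 and Krt75.

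Krt8, the type II chain of simple epithelia (ENSMUSG00000049382.9, chr15:101827142-101834773, minus strand), carried the highest H3K9ac ratio of the family. Its window held 176 H3K9ac, 81 13HH3, 75 7G8 and 52 input tags, or 75.9, 37.5, 31.5 and 26.9 tags per 10000000. H3K9ac was 1.46 above input on the log2 scale (interval 1.04 to 1.97), while 13HH3 gave 0.46 (-0.04 to 1.01) and 7G8 0.22 (-0.30 to 0.76). The H3K9ac interval lay above 0 under both scalings, whereas the 13HH3 interval included 0 by library totals and lay above 0 with scaling outside enriched regions. Against H3K9ac, 13HH3 was -1.0 (-1.42 to -0.63) and 7G8 -1.24 (-1.68 to -0.87), the lowest values among the members for both antibodies. H3K9ac regions were centred 922 bp downstream of the Krt8 TSS (92 H3K9ac and 19 input tags) and at position -1978 from it (77 and 20 tags). A 13HH3 region was centred 1172 bp downstream, with 30 13HH3 and 13 input tags. The 500 bp steps on either side of the TSS held 19 and 21 H3K9ac tags, and the step from 1000 to 1500 bp downstream held 39.

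Krt18, its type I partner (ENSMUSG00000023043.6, chr15:101858647-101862457, plus strand), is the only type I gene in the type II cluster and lies beside Krt8 at its end. It held 127 H3K9ac, 72 13HH3, 64 7G8 and 66 input tags. H3K9ac was 0.67 over input (0.24 to 1.13), 13HH3 -0.04 (-0.54 to 0.47) and 7G8 -0.34 (-0.87 to 0.17). As at Krt8, H3K9ac stood above input and both H3K14ac intervals included 0. The intervals of H3K9ac at Krt8 and Krt18 overlap between 1.04 and 1.13. Its H3K9ac region was centred 229 bp downstream of the TSS, with 64 H3K9ac and 14 input tags.

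Krt19, a type I keratin of simple epithelia that lacks the usual tail domain (ENSMUSG00000020911.8, chr11:100002124-100009979, minus strand), gave different values at its 2 starts. At the outermost annotated start it held 66 H3K9ac, 80 13HH3, 70 7G8 and 43 input tags, with H3K9ac at 0.34 (-0.22 to 0.94) and 13HH3 at 0.71 (0.18 to 1.30). At the start of its longest coding sequence, with 129, 75, 81 and 48 tags, H3K9ac was past the 2-fold limit at 1.13 (0.67 to 1.67) and 13HH3 stood at 0.46 (-0.06 to 1.03). The inner start has 32 CpG dinucleotides per 1 kb and the outer one 14. At the inner start 13HH3 over H3K9ac was -0.67 (-1.11 to -0.26), against 0.37 (-0.11 to 0.87) at the outer start. The starts lie 2545 bp apart, so their windows overlap in part and share tags. For H3K9ac over input the intervals at the 2 starts overlap, as do those of 13HH3.

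Krt7, a type II keratin of ducts and glands (ENSMUSG00000023039.9, chr15:101241474-101260744, plus strand), showed no such excess of H3K9ac over the whole 2 kb windows. At the outermost start it held 101 H3K9ac, 108 13HH3, 90 7G8 and 76 input tags, giving 0.14 (-0.30 to 0.60), 0.34 (-0.09 to 0.79) and -0.06 (-0.52 to 0.40). All these intervals included 0, but with scaling outside enriched regions those of H3K9ac and 13HH3 lay above it. At the start of the longest coding sequence, with 53 CpG dinucleotides per 1 kb in place of 5, H3K9ac was 0.15 (-0.25 to 0.57) and 13HH3 0.30 (-0.10 to 0.71). The 500 bp just downstream held 39 H3K9ac, 28 13HH3, 28 7G8 and 8 input tags. An H3K9ac region there held 45 H3K9ac and 13 input tags (2.88-fold), and a 13HH3 region overlapping it held 37 13HH3 and 15 input tags.

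**Figure D2:**
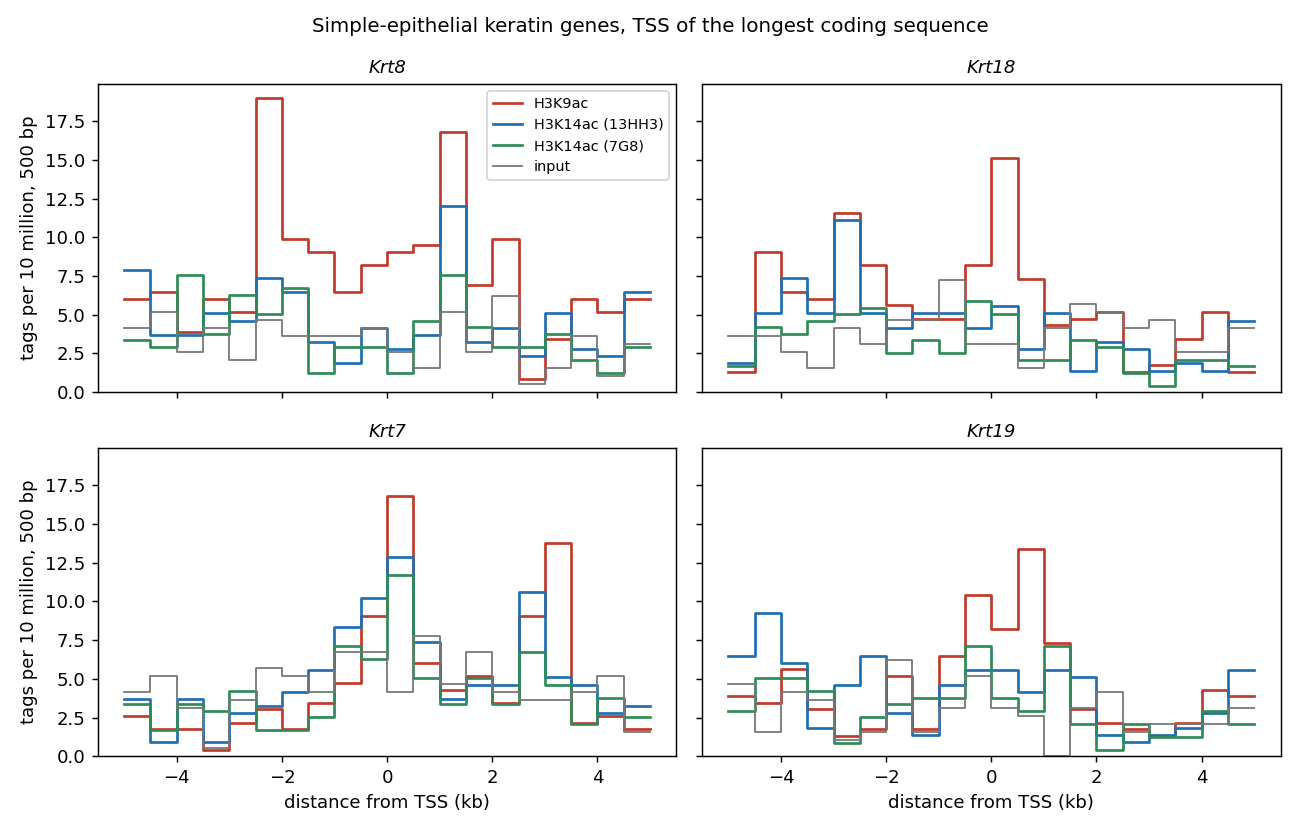
Tags per 10000000 in 500 bp steps (y axis) against distance from the TSS of the longest coding sequence in kb (x axis) for Krt8, Krt18, Krt7 and Krt19, 1 line per library with input in grey. H3K9ac stands above the other lines on both sides of the Krt8 start, just downstream of the Krt18 start and around the Krt19 start, while at Krt7 all 3 ChIP lines are highest near the TSS in the step just downstream, where H3K9ac is at 16.8, 13HH3 at 12.9, 7G8 at 11.7 and input at 4.14.

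As a class, the 4 simple-epithelial genes had median ratios of 0.50 for H3K9ac, 0.40 for 13HH3 and 0.08 for 7G8 at the outermost starts, and all 4 lay above 0 for H3K9ac. The 93 members outside this class are mainly hair and skin genes, but include keratins of other epithelia such as Krt13. They had medians of -0.56, -0.16 and -0.28, and 19 of them lay above 0 for H3K9ac, as did 16230 of all 21418 genes. Under scaling outside enriched regions the medians were 0.97, 0.58 and 0.15 for the simple-epithelial genes and -0.10, 0.03 and -0.22 for the others, of which 45 lay above 0 for H3K9ac. With 4 genes and 1 library per antibody this contrast is a description, and it rests on classes set by symbol. Krt20, counted among the 93, was at 0.32 in H3K9ac, between Krt7 and Krt19 at their outermost starts.

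Among the 24 other epithelial keratins the median was -0.17 for H3K9ac, 0.06 for 13HH3 and -0.32 for 7G8, and 9 lay above 0 in H3K9ac. Scaled outside enriched regions, the medians were 0.29, 0.24 and -0.25, and 16 lay above 0 in H3K9ac. Krt17, a keratin of basal cells of skin appendages and of wounded epidermis, was highest. It held 173 H3K9ac, 101 13HH3, 83 7G8 and 81 input tags, with H3K9ac at 0.82 (0.44 to 1.23) and 7G8 over H3K9ac at -1.08 (-1.50 to -0.71). It stood just short of the 2-fold limit for H3K9ac, as did Krtap5-2 at 0.89. Krt222, a divergent type I keratin at the edge of the cluster, held 72 H3K9ac and 37 input tags, a ratio of 0.67 (0.11 to 1.31).

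By library totals, the keratins that define the layers of the epidermis were near or below input within 2 kb of the TSS. Krt10 was the exception in wider windows. With scaling outside enriched regions the H3K9ac interval of Krt10 and the 13HH3 interval of Krt14 lay above 0 within 2 kb. The H3K9ac intervals of Krt5, Krt14 and Krt1 then included 0. Krt5 held 46 H3K9ac, 76 13HH3, 48 7G8 and 71 input tags, with H3K9ac at -0.86 (-1.46 to -0.33). Its basal-layer partner Krt14 held 69, 91, 76 and 64 tags, with H3K9ac at -0.15 (-0.67 to 0.36) and 13HH3 at 0.34 (-0.13 to 0.83). Krt1, the type II chain of the suprabasal layers, was at -0.62 (-1.20 to -0.09) in H3K9ac. Its partner Krt10 was at 0.30 (-0.26 to 0.89) in H3K9ac and at -0.84 (-1.61 to -0.19) in 7G8. With windows of 5 kb its H3K9ac ratio was 1.03, and these windows take in an H3K9ac region in its 3′ part. The lowest member was Krt6b, a keratin of activated keratinocytes, with 11 H3K9ac, 20 13HH3, 32 7G8 and 49 input tags and an H3K9ac ratio of -2.20 (-3.51 to -1.46). Krt6b has a near-identical neighbour, Krt6a, and 75% of the 36-base words in its window are unique in mm9, so the placing of its tags is uncertain.

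For 3 of these 24 other epithelial genes the 13HH3 interval over input lay above 0 and the H3K9ac interval included 0, as at the outer start of Krt19 and at Krtap17-1. Intervals were not counted over all genes, so this count has no share beside it. An interval that includes 0 over the whole window does not mean that H3K9ac was absent. Krt42 and Krtap17-1 had an H3K9ac region within 2 kb, that of Krtap17-1 with 36 H3K9ac and 7 input tags. With scaling outside enriched regions the H3K9ac intervals of Krt15, Krt42, Krt19 and Krtap17-1 also lay above 0. Krt13, the type I keratin of the mucosa of mouth and oesophagus, held 47 H3K9ac, 91 13HH3, 81 7G8 and 54 input tags, giving 13HH3 over input at 0.57 (0.09 to 1.10) and 13HH3 over H3K9ac at 1.02 (0.53 to 1.59). Krt15, a basal keratin also used as a marker of hair follicle bulge cells, was at 0.73 (0.25 to 1.27) for 13HH3 and 0.29 (-0.22 to 0.84) for H3K9ac. Krt42 held 105, 131, 95 and 74 tags, with 13HH3 at 0.65 (0.24 to 1.09) and H3K9ac at 0.24 (-0.20 to 0.69). None of the 3 reached a 2-fold excess of 13HH3 over input. The direct ratio of 13HH3 to H3K9ac was 0.44 (0.00 to 0.90) at Krt15 and 0.41 (0.04 to 0.80) at Krt42, and scaling outside enriched regions shifted the median of this ratio over all genes by -0.29. For 7G8 the same genes were at 0.27 (-0.23 to 0.81), -0.12 (-0.68 to 0.44) and 0.06 (-0.40 to 0.52), all with 0 inside the interval. Krt23, a type I epithelial keratin with 34, 77, 45 and 59 tags, had the highest 13HH3 over H3K9ac among keratins, 1.22 (0.68 to 1.91), while its 13HH3 over input was 0.21 (-0.29 to 0.74).

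The 9 keratins of the inner root sheath and companion layer had medians of -0.28, -0.16 and -0.56 over input for H3K9ac, 13HH3 and 7G8. With scaling outside enriched regions they were 0.19, 0.03 and -0.49, and 6 of the 9 lay above 0 in H3K9ac in place of 2. Krt27 and Krt28, type I chains of the inner root sheath, were the 2 members of the class above 0 in H3K9ac, at 0.11 (-0.48 to 0.71) and 0.27 (-0.35 to 0.93). Krt74, a type II chain of the same layer, was the lowest at -1.15 (-1.83 to -0.59). All 9 lay below 0 for 7G8, or 8 with the other scaling, against 6022 and 5196 of all 21418 genes.

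The 14 hair keratins, which build the cortex and cuticle of the hair shaft, were all below input in H3K9ac within 2 kb of the TSS, from -1.52 to -0.03 with a median of -0.79. Of all 21418 genes, 4841 lay below input in H3K9ac. At Krt81 the direction turned with the window. It was at -0.30 (-0.84 to 0.22) within 2 kb, with 62 H3K9ac and 64 input tags, and past 2-fold above input at 1.16 within 1 kb, where an H3K9ac region centred 20 bp downstream of its TSS held 32 H3K9ac and 7 input tags. Krt35 held 34 H3K9ac, 64 13HH3, 49 7G8 and 85 input tags, with H3K9ac at -1.52 (-2.20 to -1.0), and was also low in 7G8 at -1.06 (-1.64 to -0.57). Krt36, with 25, 56, 45 and 48 tags, and Krt32, with 28, 61, 57 and 46, had 13HH3 over H3K9ac at 1.19 (0.56 to 2.01) and 1.16 (0.56 to 1.92). Their 13HH3 over input was 0.06 (-0.52 to 0.65) and 0.23 (-0.33 to 0.83), so the high ratios to H3K9ac went with low H3K9ac and not with 13HH3 above input. Under scaling outside enriched regions 4 of the 14 hair keratins lay above 0 in H3K9ac, and the class median was -0.34.

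The 46 KAP genes had medians of -0.62 for H3K9ac, -0.30 for 13HH3 and -0.16 for 7G8. Of the 17 members at least 2-fold below input in H3K9ac, 10 were KAPs. That is 21.7% of the KAPs, against 17.5% of all members and 28.6% of hair keratins. Scaled outside enriched regions, the medians were -0.19, -0.12 and -0.09. Krtap24-1 held 10 H3K9ac, 25 13HH3, 41 7G8 and 35 input tags, with H3K9ac at -1.85 (-3.25 to -1.03) and 7G8 over H3K9ac at 1.78 (0.97 to 3.16), the highest value of that ratio in the family. Krtap11-1, with 16, 48, 36 and 52 tags, had the highest 13HH3 over H3K9ac at 1.55 (0.84 to 2.60). Its 48 13HH3 tags did not exceed its 52 input tags, so this ratio went with low H3K9ac and not with 13HH3 above input. Krtap24-1 and Krtap11-1 lie in the chromosome 16 cluster, at its opposite ends. The other KAPs with a 2-fold excess of 13HH3 over H3K9ac were Krtap1-3 (1.12), Krtap1-4 (1.08), Krtap26-1 (1.05) and Krtap6-3 (1.05). With scaling outside enriched regions 2 KAPs passed this limit, in place of 6.

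KAP genes differed by cluster. The 19 on chromosome 16 had medians of -0.80 for H3K9ac, -0.30 for 13HH3 and 0.06 for 7G8, and 7G8 was at least 2-fold above H3K9ac at 8 of them, against 3.36% of all genes and 14.1% of vomeronasal receptor genes. The 22 on chromosome 11 had medians of -0.52, -0.32 and -0.29, and 3 passed that limit. With scaling outside enriched regions these counts were 2 and 0, against 217 of all 21418 genes. The 4 Krtap5 genes of chromosome 7 were the only KAP group with all members above 0 for every antibody, with medians of 0.51, 0.59 and 0.59. Of all 21418 genes, 16230, 15057 and 15058 lay above 0. For any 1 antibody, 4 of 4 cannot be told apart from such shares, and the chromosome 10 group is 1 gene. Krtap5-5 held 55 H3K9ac, 88 13HH3, 68 7G8 and 27 input tags, and its 13HH3 ratio of 1.48 (0.91 to 2.22) was the highest in the family, with 7G8 at 0.98 (0.37 to 1.73) and H3K9ac at 0.72 (0.07 to 1.48). It was the only member with a 7G8 interval above 0. These windows had few input tags, and between 61.7% (Krtap5-2) and 87.9% (Krtap5-4) of the 36-base words in them are unique in mm9. Krtap4-13, the 1 member past 2-fold for 7G8 at 1.08 (-0.01 to 2.76), rests on 21 7G8 and 7 input tags in a window of which 39.7% is unique, and its interval includes 0.

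The members just inside and just outside the limits show how little separates them. For H3K9ac below input, Krt23 (-1.01) and Krtap26-1 (-1.0) were just past the limit, and Krtap6-3 (-0.96) and Krt82 (-0.93) just short. For 13HH3 above input, Krt15 (0.73) and Krt19 (0.71) came next after Krtap5-5. Of 13HH3 below H3K9ac, Krt28 (-0.85) and Krt18 (-0.70) came next after Krt8. Their intervals overlap those of their neighbours in the order.

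**Figure D3:**
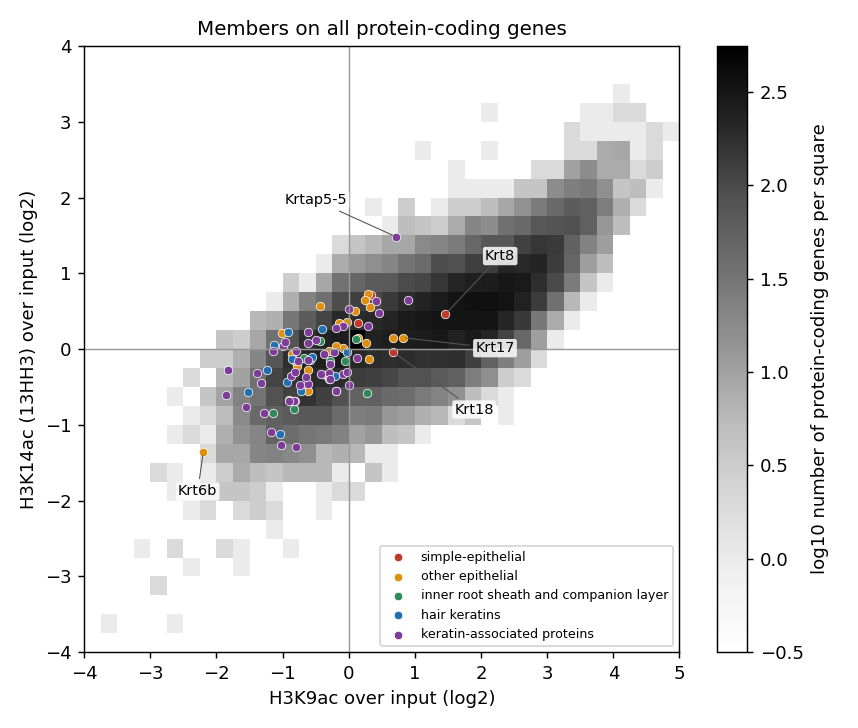
H3K9ac over input (x axis, log2) against 13HH3 over input (y axis, log2) within 2 kb of the TSS. Grey squares count all protein-coding genes on a log10 scale and coloured points are the 97 members by class. Members sit at the lower left of the gene cloud, with Krt8 (1.46) farthest to the right in H3K9ac and Krtap5-5 (1.48) highest in 13HH3.

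Type I and type II keratins differed in level. Leaving out the simple-epithelial genes, the 26 type I keratins had medians of -0.17 for H3K9ac, 0.10 for 13HH3 and -0.12 for 7G8, and 11 of them lay above 0 in H3K9ac. The 21 type II keratins had medians of -0.67, -0.27 and -0.67. Above 0 were 0 of 21 in H3K9ac and in 7G8, against 16230 and 15058 of all 21418 genes. Under scaling outside enriched regions the H3K9ac medians were 0.30 and -0.20, and 8 of the 21 type II genes then lay above 0. All type I genes but Krt18 are on chromosome 11 and all type II genes on chromosome 15, so type and cluster cannot be told apart.

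By library totals H3K9ac was also below input across the gene clusters as a whole. On the same scale the parts of chromosomes 1 to 19 outside enriched regions stood at -0.48 for H3K9ac, -0.19 for 13HH3 and -0.07 for 7G8. In the chromosome 11 cluster (chr11:99094075-100131185, 49 members and 34 other coding genes) H3K9ac over input was -0.39 (-0.43 to -0.35), 13HH3 -0.23 (-0.27 to -0.19) and 7G8 -0.24 (-0.27 to -0.20). In the chromosome 15 cluster (chr15:101177875-101862457, 24 members and 4 others) the values were -0.52 (-0.57 to -0.48), -0.27 (-0.31 to -0.23) and -0.46 (-0.50 to -0.42). In the chromosome 16 KAP cluster (chr16:88610954-89571428, 19 members and 14 others) they were -0.81 (-0.87 to -0.75), -0.45 (-0.50 to -0.39) and -0.05 (-0.10 to 0.00). The 3 clusters hold 44.1%, 48.3% and 38.8% G+C, and the part of base composition in these differences was not tested. H3K9ac regions covered 1.14% of the chromosome 11 cluster (16 regions) and 1.72% of the chromosome 15 cluster (15 regions), and there were 0 in the chromosome 16 cluster. Scaled outside enriched regions, H3K9ac was 0.09, -0.04 and -0.33 in the same order, which turns the sign at chromosome 11. This scaling adds the same amount to every cluster.

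**Figure D4:**
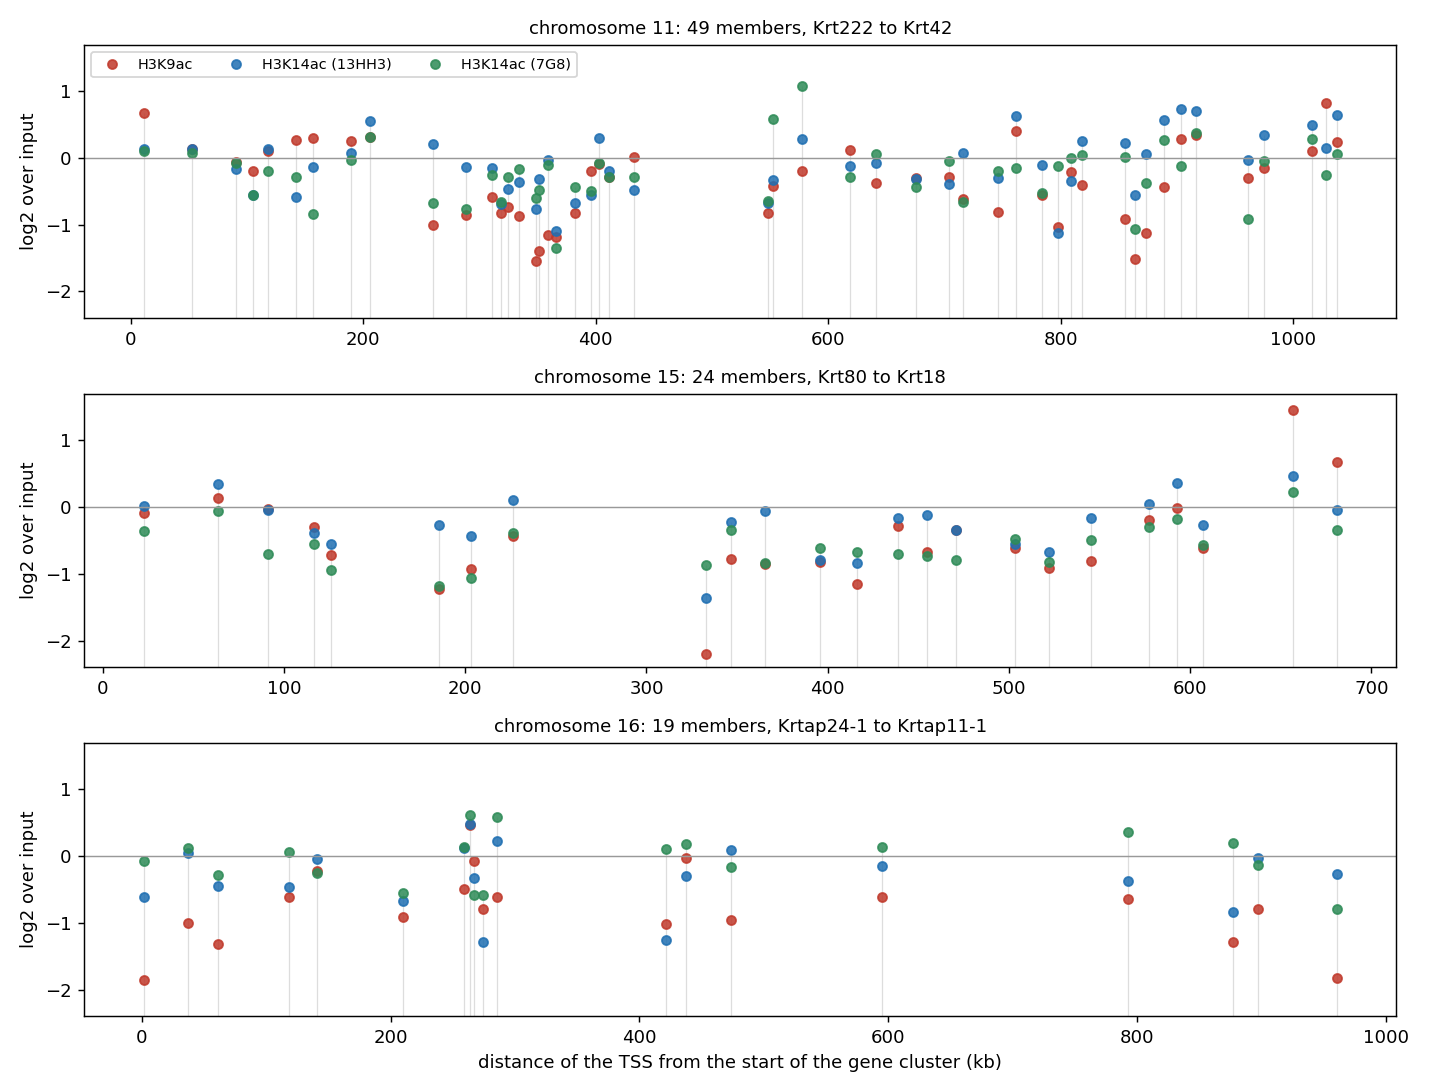
Log2 ratio over input within 2 kb of the TSS (y axis) against the distance of the TSS from the start of its gene cluster in kb (x axis), 1 panel per chromosome and 1 point per member and antibody. In the chromosome 15 panel the last 2 genes, Krt8 and Krt18, are the highest in H3K9ac, and in the chromosome 16 panel 7G8 lies above H3K9ac at most genes.

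The strongest H3K9ac regions of the clusters were not all at TSSs. The largest by tags above input, chr11:99246351-99248350, lies in the 3′ part of Krt10 and just beyond it, with its centre 3327 bp downstream of the Krt10 TSS, and held 156 H3K9ac and 18 input tags, a 7.22-fold ratio of densities. It held 35 13HH3 and 60 7G8 tags, and a 7G8 region of 500 bp lies within it. The next, chr15:101814001-101815400, lies 20072 bp downstream of the Krt8 TSS, beyond the 3′ end of the gene, with 99 H3K9ac and 18 input tags (4.58-fold). It also contains a 7G8 region. A region of 850 bp centred 3203 bp downstream of the outermost Krt19 start, close to the inner one, held 46 H3K9ac and 6 input tags (6.39-fold). At Krt17 a region centred at position -683 from the TSS held 59 and 12 tags (4.1-fold).

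In steps of 500 bp the antibodies parted just downstream of the TSS. Summed over the 47 keratins other than the simple-epithelial ones, the first 500 bp downstream held 625 H3K9ac, 632 13HH3, 420 7G8 and 419 input tags. H3K9ac was 0.31 over input there (0.13 to 0.50) and 13HH3 0.43 (0.25 to 0.61), whereas 7G8 was -0.30 (-0.50 to -0.10). In the next 500 bp the values were -0.56, -0.30 and -0.48. In the step just upstream of the TSS they were 0.01, 0.26 and -0.10, so H3K9ac and 13HH3 peaked within 500 bp downstream and 7G8 did not.

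At the 46 KAP genes 13HH3 alone was above input at this step by library totals. Its ratio was 0.23 (0.00 to 0.46), with H3K9ac at -0.60 (-0.86 to -0.34) and 7G8 at -0.50 (-0.75 to -0.24). At the chromosome 11 KAP genes 7G8 was lowest there, at -1.02 (-1.42 to -0.64), while on chromosome 16 it was 0.05 (-0.33 to 0.44). Taken by cluster, the 13HH3 intervals included 0, at 0.29 (-0.02 to 0.61) on chromosome 11 and 0.13 (-0.26 to 0.51) on chromosome 16. This step, which covers most of the short KAP coding sequences, is also where base composition moved most, with 56.3% G+C at KAP genes against 40.4% just upstream and 42.5% just downstream. At the chromosome 11 KAP genes it was 61.1%, at the chromosome 16 ones 49.5%. The 80 members outside the simple-epithelial class with no enriched region within 2 kb gave -0.35 (-0.52 to -0.18) for H3K9ac, 0.25 (0.09 to 0.40) for 13HH3 and -0.52 (-0.69 to -0.34) for 7G8 at 57.2% G+C. By library totals H3K9ac was thus below input in this step over the 80, while the sums over the 47 keratins and the 46 KAP genes include members with a region. Among the KAP genes these are Krtap5-5 and Krtap17-1. With scaling outside enriched regions the H3K9ac intervals of the 80 members and of the 46 KAP genes in this step included 0. The 6375 other protein-coding genes with no such region, with at least 1 input tag within 2 kb and more than 5 kb from a chromosome end, gave -0.15 (-0.17 to -0.13), 0.05 (0.03 to 0.07) and -0.12 (-0.14 to -0.09) at 47.2%. The part of G+C content in these differences was not tested.

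**Figure D5:**
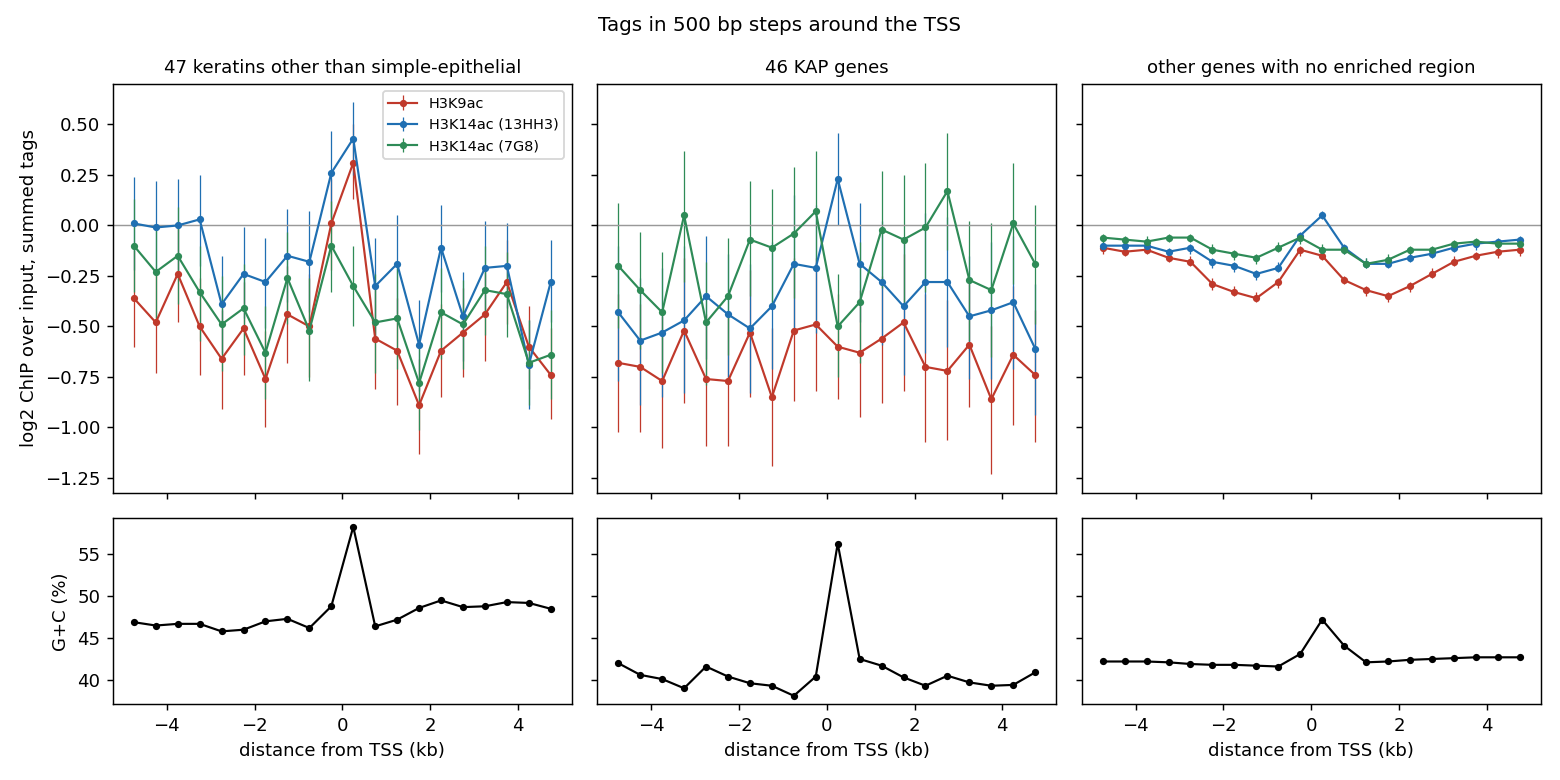
Upper panels show the log2 ratio of summed ChIP to input tags (y axis) in 500 bp steps around the TSS (x axis, kb), with exact 95% binomial intervals, for 47 keratins, 46 KAP genes and the 6375 other genes without an enriched region. Lower panels show G+C in percent for the same steps. The step just downstream of the TSS has 13HH3 at 0.43, 0.23 and 0.05 and G+C at 58.3%, 56.3% and 47.2%.

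CpG content was set beside H3K9ac among the members and among all genes. Spearman's rho between H3K9ac over input and CpG dinucleotides per 1 kb was 0.15 over the 97 members and 0.72 over all genes, across genes of the same libraries, which are not independent replicates. The members span 2 to 52 CpG per 1 kb and all genes 0 to 180, so the 2 values cover unlike ranges, and their difference was not tested. At 10 or fewer CpG per 1 kb the 28 members (median -0.42) were near the 4542 genes of that range (-0.30). At 11 to 20 the medians were -0.65 for 37 members and 0.12 for 3028 genes, at 21 to 30 they were -0.40 for 22 members and 0.76 for 1635 genes, and at 31 to 40 they were -0.13 for 8 members and 1.31 for 1336 genes. The 2 members with 41 to 60 were at 0.32, against 1.84 for 3673 genes. The gap between members and genes of like CpG content was thus wider at the higher CpG counts. For 7G8 over H3K9ac rho was -0.45 over the members and -0.75 over all genes.

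Other gene families without expression in most tissues served for comparison. The 327 vomeronasal receptor genes, expressed in sensory neurons of the vomeronasal organ, had medians of -0.21 for H3K9ac, -0.21 for 13HH3 and 0.17 for 7G8. Their windows held a median of 15 H3K9ac tags, and 172 of the 327 had under 80% unique words. Windows without tags stand at 0 through the added 1, so these medians are drawn toward 0. By summed tags their H3K9ac was -0.30 (-0.35 to -0.24), against -0.34 (-0.40 to -0.28) for the 97 members. The 79 genes of the Cyp1 to Cyp4 families, mostly liver enzymes, had medians of -0.36, -0.04 and 0.08. In H3K9ac 9 of them were at least 2-fold above input and 14 (17.7%) at least 2-fold below. The share below was 17.5% for the 97 members, 10.7% for vomeronasal genes and 12.3% for the genes without a region described next. The 6853 protein-coding genes with no enriched region of any library within 2 kb had medians of -0.28, -0.09 and -0.03. The 81 members without such a region had -0.62, -0.20 and -0.29. In 13HH3 over H3K9ac they were at 0.34, against 0.14 over those 6853 genes, 0.00 for vomeronasal and 0.31 for Cyp genes. In 7G8 over H3K9ac they were at 0.21, against 0.22, 0.44 and 0.33. At least 2-fold above H3K9ac in 7G8 were 14.8% of the 81 members, 10.2% of the 6853 genes, 14.1% of vomeronasal and 17.7% of Cyp genes. In 13HH3 these shares were 12.3%, 4.79%, 1.83% and 8.86%. With scaling outside enriched regions the median 13HH3 ratios were 0.06, -0.05, -0.12 and 0.08 in the same order. The 7G8 ratios were -0.17, -0.05, 0.08 and 0.00. These sets are unlike, because the vomeronasal and Cyp genes with a region (1.22% and 26.6%) were kept. Without that filter the 97 members stood at -0.01 in 13HH3 and -0.25 in 7G8 with this scaling, against 0.08 and 0.00 for Cyp genes.

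Lists of other intermediate filament genes, of keratin-anchoring and cornified-envelope genes and of epithelial transcription factors had higher H3K9ac medians than the members. Their counts past 2-fold are to be read beside the shares of all genes (55.4% in H3K9ac, 14.7% in 13HH3 and 15.1% in 7G8). Of 15 other intermediate filament genes, 11 were at least 2-fold above input in H3K9ac, 1 in 13HH3 and 3 in 7G8, with a median H3K9ac of 1.31, against 1.23 over all genes. They included the lamin genes Lmnb1 (3.42), Lmna (2.84) and Lmnb2 (1.52), the neurofilament gene Nefl (2.17), the muscle gene Des (1.44) and Vim (1.10). Of 16 genes that anchor keratin filaments or form the cornified envelope, 8 passed in H3K9ac, 1 in 13HH3 and 0 in 7G8, with a median of 1.00, so this list was not above the level of all genes. The desmosomal genes Pkp2 (1.94), Dsp (1.93) and Jup (1.92) led, and Ivl, which encodes the envelope protein involucrin, was at -0.91. The values did not divide by kind of gene. Tchh passed at 1.44 (0.93 to 2.09), and the desmosomal gene Pkp1 did not, at 0.59 (0.11 to 1.12). Eppk1 was on the list and was not matched by symbol.

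Of 19 transcription factors of epithelial and hair cells, 15 were at least 2-fold above input in H3K9ac, 2 in 13HH3 and 1 in 7G8, with a median of 1.60. Klf4 (2.50) and Klf5 (2.03), which also act in ES cells, were among them, as were Elf3 (2.33), Ovol2 (2.16), Grhl1 (2.13) and Tcfap2c (1.87). Hoxc13 (1.47), Lef1 (1.72) and Dlx3 (1.56) passed the limit as well. The 4 genes that did not were Trp63, a regulator of the basal layer of stratified epithelia (-0.11), Elf5 (-0.10), Foxn1, a regulator of hair keratin genes (-0.04), and Msx2 (0.99).

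Some windows are not independent or not fully readable. For 8 members under 80% of the 36-base words within 2 kb of the TSS are unique in mm9, the lowest being Krtap4-13 (39.7%), Krtap5-2 (61.7%) and Krt16 (71.8%). The windows of 6 members overlap that of another coding gene in part, among them Krtap1-4 with Krtap1-5 (TSSs 2638 bp apart, 1362 bp shared) and Krtap16-1 with Krtap16-5 (3769 bp apart, 231 bp shared), so parts of their tags were counted at both genes.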

How the data were processed

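Per the labels and the study's methods, chromatin fragments of 150 to 350 bp were sequenced on single ends, and the authors aligned reads to mm9 with ELAND, allowing 1 mismatch (version not given in the sources used here). The deposited files list the position and strand of each uniquely aligned tag, with a constant score of 1 per line that was not used. The peak lists of the authors (MACS) were not used here.

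From these positions, repeats of a position and strand were removed, tags were moved 100 bp toward the fragment centre, and tags within 2 kb of each TSS (5′ end of the GENCODE vM1 gene) were counted. Counts were scaled per 10000000 tags and compared as log2 ratios with a pseudocount of 1. No filter on low values was applied, so all 97 members have values. Enriched regions were called in 400 bp windows against whichever rate was highest, the average over all chromosomes or the scaled input over 1, 5 or 10 kb (Poisson, 1e-05 or 1e-10). One library per group allowed no test across genes, and "called" means past 2-fold. Members and gene lists were chosen with earlier results of these data known. Named genes were the simple-epithelial keratins, members past 2-fold above input or with an enriched region, those with the highest 13HH3 over H3K9ac, and those next to a limit. Others named as textbook class representatives or as cluster extremes were chosen after their values were seen. Sequences and G+C were read from the mm9 assembly. The counting was tested on simulated data. Python 3.11.15, numpy 2.4.6, scipy 1.17.1, pandas 2.3.3, numba 0.67.0 and matplotlib 3.10.9 were used.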

Additional observations from a re-analysis of the deposited data

How the results depend on the processing

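Of the alternative values for the main results, 49 stayed within counting error or, for counts, within 1.5 times, 30 moved further and 5 changed sign. The H3K9ac count above 2-fold, 1 gene, became 5 with 1 kb windows (Krt222, Krt17, Krt81, Krt8, Krt18), 2 with 5 kb windows (Krt10, Krt8), 6 with scaling outside enriched regions, 2 at the TSS of the longest coding sequence (Krt19, Krt8) and 6 at a 1.5-fold limit. The 13HH3 count, 1, became 3, 0 and 6 with 1 kb windows, 5 kb windows and the 1.5-fold limit. The 7G8 count, 1, became 2 with 1 kb windows, a pseudocount of 0.25 or scaling outside regions, 5 at the 1.5-fold limit, and 0 with 5 kb windows, a pseudocount of 4, at least 10 input tags or at least 80% unique words. The median of 13HH3 over H3K9ac, 0.27, was 0.36 with 1 kb windows or scaling by the gene's own chromosome and -0.01 with scaling outside regions. That of 7G8 over H3K9ac, 0.14, was -0.03 with 1 kb windows, 0.23 with 5 kb windows, -0.25 outside regions and 0.26 by own chromosome. Scaling outside regions also turned the H3K9ac median to 0.02 and the 13HH3 median over input to 0.03, and 1 kb windows turned the latter to 0.09. It set the clusters of chromosomes 11, 15 and 16 to 0.09, -0.04 and -0.33 for H3K9ac, -0.04, -0.08 and -0.26 for 13HH3, and -0.16, -0.39 and 0.02 for 7G8. Outside TSS windows H3K9ac over the chromosome 11 cluster was -0.35. Scaling outside regions changed the members at least 2-fold above H3K9ac from 10 to 2 for 13HH3 and from 12 to 2 for 7G8, and those at least 2-fold below from 1 to 2 for 13HH3 (4 to 6 for 7G8, within 1.5 times). It changed those at least 2-fold below input from 17 to 5, 5 to 3 and 4 to 2 for H3K9ac, 13HH3 and 7G8. Among other settings, a pseudocount of 4 took the first 2 of these counts to 11 and 1, and 5 kb windows took that of 7G8 to 0. The count of 13HH3 at least 2-fold below H3K9ac, 1, became 3 with 1 kb windows and 0 with 5 kb windows or a pseudocount of 4. At 1e-10 members with a region fell from 14 to 6 for H3K9ac and from 8 to 2 for 13HH3. The cause of these shifts was not tested. No paired analysis was possible because each group is 1 library. With a median of 35 H3K9ac and 44 input tags per window, counting error alone limits single-gene values.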
